A study of Mus musculus with 24 samples.

Results

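The genes described here are 9 that are commonly used to define a macrophage, namely the transcription factors *Spi1*, *Cebpa*, *Maf*, *Mitf* and *Tfec* and the surface or lysosomal markers *Csf1r*, *Adgre1*, *Itgam* and *Cd68*. They were chosen by name, with earlier results of these data known. Matching by symbol to Ensembl identifiers gave 9 of the 56884 genes in the deposited count table. All 9 were among the 13679 genes with enough reads to be tested. Gene expression was measured by bulk RNA-seq in macrophages grown from bone marrow (BMDM) with macrophage colony-stimulating factor, taken from 4 wild-type female C57BL/6J mice numbered 1, 2, 4 and 5. Each mouse gave 1 library in each of 6 groups, so that a group holds 4 libraries and the series 24. Naive BMDM were left unstimulated for 24 h, and the IL-4/IL-13 group received both cytokines at 20 ng/mL for 24 h. The other 4 groups received the same cytokines together with an inhibitor that had also been given for 1 h beforehand. Tunicamycin, which blocks N-linked glycosylation in the endoplasmic reticulum, was used at 5 µg/mL. Sal003, an inhibitor of eIF2α dephosphorylation, was used at 10 µM, and oligomycin, an inhibitor of the mitochondrial ATP synthase, at 1 µM. One of the 2 oligomycin groups also received ISRIB, which counteracts the effect of phosphorylated eIF2α, at 1 µM, but the labels conflict on which. The group called oligomycin set A here has ISRIB in its sample titles but not in its library names, and the group called oligomycin set B has ISRIB in its library names but not in its titles, so no difference below is assigned to ISRIB. No group received an inhibitor without the cytokines.

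PU.1, the product of *Spi1*, and C/EBPα, the product of *Cebpa*, are the DNA-binding factors that commit progenitors to the myeloid lineage and hold enhancers of macrophage genes open. c-Maf, the product of *Maf*, belongs to the large Maf factors that restrain self-renewal in mature macrophages, and *Mitf* and *Tfec* encode members of the MiT/TFE family, which drive lysosomal genes. *Csf1r* encodes the receptor for macrophage colony-stimulating factor, *Adgre1* the F4/80 antigen, *Itgam* the CD11b chain of the complement receptor 3 integrin and *Cd68* a heavily glycosylated protein of the lysosomal membrane.

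Library size ranged from 16238727 to 26725278 reads assigned to genes, with a median of 18999998. Levels are given as CPM, the reads of a gene scaled to a common library total after TMM scaling, always for mice 1, 2, 4 and 5 in that order, and a difference was called when edgeR's quasi-likelihood test gave a Benjamini-Hochberg adjusted p under 0.05 over all genes tested. One library stood apart: naive mouse 2 was the outlying library of its group in 7.64% of the genes tested, against 0.58% to 2.65% for the other 23 libraries, and the main values of comparisons with naive BMDM are therefore also given without it. Markers of T and NK cells, B cells, mast cells and erythroid cells did not pass the expression filter in any list, and the summed level of the B cell list, the highest of these, did not exceed 1.28 CPM in any library. Neutrophil and granule markers summed to 41.0 to 77.5 CPM in naive, 29.0 to 50.8 CPM in IL-4/IL-13 and 0.10 to 0.33 CPM in tunicamycin libraries, with 3 of the 9 markers at 0 in every tunicamycin library. In Sal003, oligomycin set A and oligomycin set B libraries the same sum was 5.35 to 8.89, 2.85 to 4.77 and 19.6 to 25.5 CPM. Stromal and endothelial markers summed to 30.5 to 149 CPM in naive, 16.5 to 88.1 CPM in IL-4/IL-13 and 6.67 to 28.9 CPM in tunicamycin libraries. Against IL-4/IL-13, tunicamycin lowered 7 of 7 measured neutrophil genes and 4 of 4 dendritic cell genes, where 37.6% of all genes were lower. Of 6 stromal and endothelial genes it lowered 3, while 1 was higher and 2 were not called. The part of these cells in the differences below was not tested. Because the RNA was extracted in bulk, fewer cells of a kind and less RNA per cell cannot be told apart.

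The 250 bases before the annotated canonical start are printed for *Maf*, which the cytokines lowered and tunicamycin raised, and for 3 genes that tunicamycin lowered, *Cebpa*, *Mitf* and *Cd68*. Sequences are from the GRCm39 genome with GENCODE vM39 starts, written 5′ to 3′ on the strand of the gene, and capitals mark matches to 5 motifs searched on both strands.
Maf, chr8:116434580-116434829, minus strand: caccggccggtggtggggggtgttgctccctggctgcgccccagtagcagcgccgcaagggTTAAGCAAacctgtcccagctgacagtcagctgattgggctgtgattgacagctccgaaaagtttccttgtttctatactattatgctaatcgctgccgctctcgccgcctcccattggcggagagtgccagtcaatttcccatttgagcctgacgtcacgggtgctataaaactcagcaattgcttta
Cebpa, chr7:34818478-34818727, plus strand: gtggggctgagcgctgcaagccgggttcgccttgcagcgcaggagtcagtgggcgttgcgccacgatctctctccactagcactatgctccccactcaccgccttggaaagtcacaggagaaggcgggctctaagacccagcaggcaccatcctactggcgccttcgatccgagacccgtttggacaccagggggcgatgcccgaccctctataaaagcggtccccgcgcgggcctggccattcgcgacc
Mitf, chr6:97783700-97783949, plus strand: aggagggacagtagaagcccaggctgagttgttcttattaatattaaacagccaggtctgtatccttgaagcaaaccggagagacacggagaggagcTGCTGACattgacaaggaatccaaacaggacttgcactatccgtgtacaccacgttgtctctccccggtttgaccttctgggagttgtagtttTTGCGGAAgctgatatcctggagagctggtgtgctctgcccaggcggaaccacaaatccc
Cd68, chr11:69557068-69557317, minus strand: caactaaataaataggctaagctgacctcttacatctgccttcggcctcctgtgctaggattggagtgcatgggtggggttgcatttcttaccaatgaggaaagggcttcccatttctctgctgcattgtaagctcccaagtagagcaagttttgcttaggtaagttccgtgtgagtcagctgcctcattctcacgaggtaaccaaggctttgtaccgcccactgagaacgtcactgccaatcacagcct
The motifs were a PU.1 site (GAGGAAGT, present in 2.39% of the 11958 promoters of protein-coding genes tested), a C/EBP site (TTGCNNAA, 7.94%), the E-box that MiT/TFE proteins can bind (CACGTG, 7.97%), a C/EBP-ATF element (TGATGNAA, 2.22%) and a Maf recognition core (TGCTGAC, 2.97%). The matches did not overlap each other, and a match describes letters only, not binding. In these 4 sequences 3 matches were found in 2 genes, a C/EBP match on the opposite strand in *Maf*, 189 to 182 bases before the start, and a C/EBP match (60 to 53 bases) and a Maf recognition core (153 to 147 bases) in *Mitf*. The same search found 0 matches in the sequences of *Spi1*, *Tfec*, *Csf1r*, *Adgre1* and *Itgam*, which are not printed. *Mitf* has several known promoters, and the gene counts do not tell them apart. GC content was 64.8% in the *Cebpa* sequence and 49.2% to 55.2% in the other 3.

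Compared per kilobase of exon that no other gene shares, 3 of the 4 markers stood above the 5 factors in naive BMDM. The other, *Itgam*, lay among the factors at 114 ± 11.8 CPM per kb. All reads of a gene were divided by this length, which assumes that reads in shared exons were not counted. Over the full exon length naive *Csf1r* was 622, *Itgam* 37.2 and *Maf* 93.7 CPM per kb, so the place of *Itgam* depends on this choice. *Adgre1* reached 990 ± 79.7 CPM per kb (SD, n = 4 throughout), *Cd68* 874 ± 84.3 and *Csf1r* 777 ± 82.0. *Spi1* followed at 173 ± 18.7 CPM per kb and *Cebpa* at 124 ± 17.4, and *Mitf* and *Tfec* were the lowest members at 11.8 ± 1.14 and 3.89 ± 0.21 CPM per kb. With tunicamycin the spacing widened, since *Adgre1* rose to 1897 ± 153 CPM per kb while *Csf1r*, at 139 ± 8.23, lay under *Spi1*, at 162 ± 6.52.

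**Figure D1:**
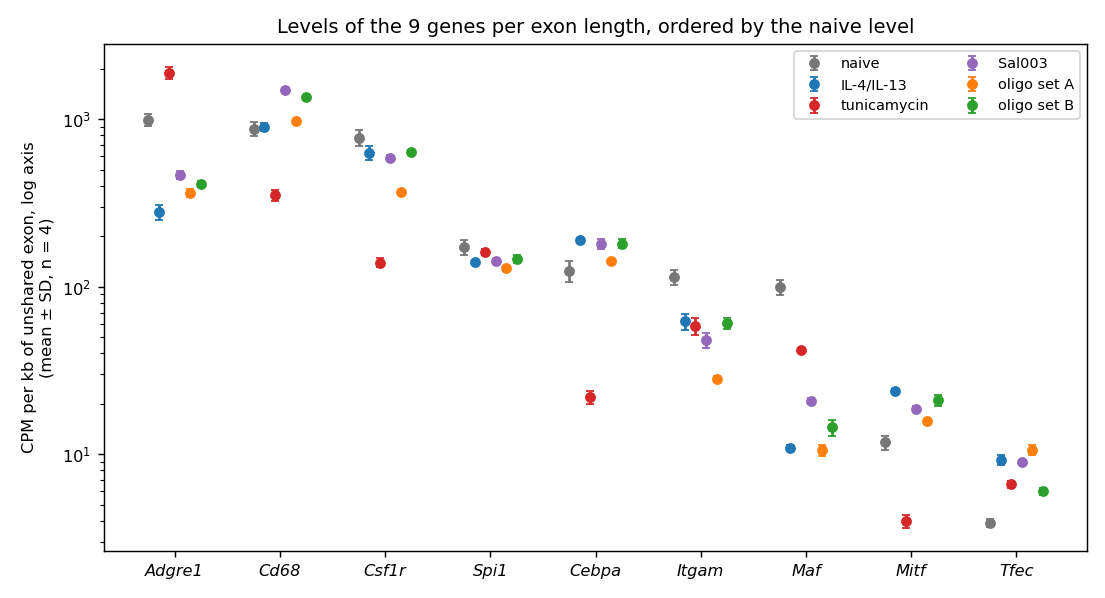
Level of each of the 9 genes in CPM per kb of unshared exon on a log axis (vertical) for the 6 groups (colours), genes ordered by their naive level, points are means and bars SD over 4 libraries. *Spi1* stayed within a narrow band, while *Csf1r*, *Cebpa* and *Mitf* were lowest with tunicamycin and *Adgre1* was highest there.

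*Spi1* (ENSMUSG00000002111, GRCm39 chromosome 2, 90912562 to 90946101, plus strand) moved least of the 9, its highest group mean being 1.33 times its lowest. It was measured at 491, 606, 499 and 489 CPM in naive BMDM and at 420, 418, 428 and 424 CPM with IL-4/IL-13. Tunicamycin libraries held 479, 508, 468 and 505 CPM. Every IL-4/IL-13 library was below every naive and every tunicamycin library. The cytokines lowered it by a log2 fold change of -0.30 (SE 0.05, adjusted p 3.02e-05), and the log2 fold change was -0.21 without naive mouse 2, whose level was the highest of the gene. Against IL-4/IL-13, tunicamycin raised it 1.16-fold (log2 0.21, SE 0.05, adjusted p 0.00101), and its tunicamycin and naive levels did not pass the test (log2 -0.09, adjusted p 0.133, and log2 0.03 without naive mouse 2).

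*Cebpa* (ENSMUSG00000034957, chromosome 7, 34818718 to 34821353, plus strand, a gene with a single exon) rose with the cytokines and was lowest with tunicamycin. Naive BMDM held 284, 384, 319 and 294 CPM, and IL-4/IL-13 libraries 478, 478, 514 and 491 CPM. The tunicamycin libraries held 63.8, 53.3, 54.8 and 53.6 CPM. The 3 groups did not overlap, with tunicamycin far under both others. The rise with the cytokines was 1.53-fold (log2 0.61, SE 0.07, adjusted p 9.13e-08, log2 0.73 without naive mouse 2). The fall with tunicamycin against IL-4/IL-13 was 8.69-fold (log2 -3.12, SE 0.08, adjusted p 3.86e-21), and against naive BMDM 5.68-fold (log2 -2.51, SE 0.08, adjusted p 2.36e-19, log2 -2.37 without naive mouse 2). *Cebpa* was also lower in oligomycin set A, at 381, 362, 373 and 363 CPM (log2 -0.41 against IL-4/IL-13, SE 0.07, adjusted p 3.1e-05), whereas Sal003, at 467 ± 32.1 CPM, and oligomycin set B, at 467 ± 29.5 CPM, did not pass the test against IL-4/IL-13.

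Of the 4 other C/EBP genes measured, 3 rose and 1 fell with tunicamycin against IL-4/IL-13. In this comparison 38.7% of all genes were higher and 37.6% lower. *Cebpd*, an inducible C/EBP gene, rose from 19.4 ± 1.96 to 209 ± 5.66 CPM against IL-4/IL-13 (log2 3.44, SE 0.07, adjusted p 4.85e-23). *Cebpb*, whose product takes part in emergency granulopoiesis and macrophage activation, rose from 137 ± 5.85 to 285 ± 10.5 CPM (log2 1.06, SE 0.08, adjusted p 1.54e-11). *Cebpg* rose from 131 ± 4.97 to 185 ± 3.03 CPM (log2 0.50, SE 0.04, adjusted p 7.01e-11), and *Cebpe*, a granulocyte factor, fell from 1.38 ± 0.27 to 0.86 ± 0.18 CPM (log2 -0.66, SE 0.24, adjusted p 0.0162).

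*Maf* (ENSMUSG00000055435, chromosome 8, 116409632 to 116434579, minus strand) had the widest range among the 9, with a highest group mean 9.47 times its lowest. It was measured at 914, 739, 905 and 917 CPM in naive BMDM and at 91.1, 92.0, 100.5 and 96.6 CPM with IL-4/IL-13. Tunicamycin libraries held 352, 372, 357 and 374 CPM, Sal003 libraries 183, 174, 176 and 191 CPM, and oligomycin set B libraries 126, 135, 107 and 135 CPM. In oligomycin set A it was 98.4, 95.5, 83.6 and 89.6 CPM, which overlapped the IL-4/IL-13 libraries, while the other 3 inhibitor groups lay above them in every library. The cytokines lowered *Maf* 9.14-fold (log2 -3.19, SE 0.08, adjusted p 3.97e-21, log2 -3.25 without naive mouse 2). Against IL-4/IL-13 it was 3.83-fold higher with tunicamycin (log2 1.94, SE 0.07, adjusted p 6.37e-18), 1.90-fold higher with Sal003 (log2 0.93, SE 0.07, adjusted p 7.5e-11) and 1.33-fold higher in oligomycin set B (log2 0.41, SE 0.07, adjusted p 3.45e-05). None of these groups reached the naive level, and tunicamycin was still 2.39-fold under it (log2 -1.26, SE 0.07, adjusted p 2.28e-14, log2 -1.29 without naive mouse 2).

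*Mafg*, which encodes a small Maf protein that pairs with other bZIP factors, rose from 122 ± 7.08 to 308 ± 7.38 CPM with tunicamycin against IL-4/IL-13 (log2 1.34, SE 0.05, adjusted p 8.12e-18).

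*Mitf* (ENSMUSG00000035158, chromosome 6, 97783950 to 97998323, plus strand) was high in every cytokine group but tunicamycin. Its levels were 119, 102, 125 and 127 CPM in naive BMDM, 239, 234, 238 and 246 CPM with IL-4/IL-13 and 38.8, 36.7, 44.8 and 39.5 CPM with tunicamycin. The 3 groups were separate, in the same order as for *Cebpa*. The cytokines raised it 2.02-fold (log2 1.02, SE 0.06, adjusted p 6.28e-13, log2 0.97 without naive mouse 2), and tunicamycin lowered it 6.00-fold against IL-4/IL-13 (log2 -2.58, SE 0.07, adjusted p 5.44e-21). It was also below IL-4/IL-13 with Sal003, at 187, 189, 196 and 180 CPM (log2 -0.35, SE 0.06, adjusted p 5.06e-05), and in oligomycin set A, at 159, 163, 151 and 159 CPM (log2 -0.60, SE 0.06, adjusted p 7.48e-09). The smaller difference in oligomycin set B, at 211 ± 16.7 CPM (log2 -0.18, SE 0.06, adjusted p 0.0168), was lost when mouse 5 was left out (log2 -0.13, adjusted p 0.138).

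*Tfec* (ENSMUSG00000029553, chromosome 6, 16833372 to 16898440, minus strand), whose expression is largely restricted to macrophages, was higher in oligomycin set A than in set B, where the other 8 members were lower. It was 20.9, 22.5, 23.1 and 20.7 CPM in naive BMDM and 51.2, 48.6, 56.3 and 51.0 CPM with IL-4/IL-13, a 2.38-fold rise (log2 1.25, SE 0.06, adjusted p 9.71e-16, log2 1.28 without naive mouse 2). Oligomycin set A held 56.2, 59.2, 65.0 and 56.9 CPM and oligomycin set B 33.5, 31.4, 35.1 and 34.4 CPM. Set A was above set B in every library, by 1.77-fold (log2 0.82, SE 0.05, adjusted p 1.01e-11), with set B below IL-4/IL-13 (log2 -0.62, SE 0.05, adjusted p 5.23e-10) and set A slightly above it (log2 0.20, SE 0.05, adjusted p 0.00221). Tunicamycin lowered *Tfec* to 37.8, 38.4, 37.4 and 34.5 CPM, 1.40-fold under IL-4/IL-13 (log2 -0.48, SE 0.05, adjusted p 1.38e-08) but still above naive BMDM (log2 0.77, SE 0.06, adjusted p 7.58e-12, log2 0.82 without naive mouse 2).

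The remaining MiT/TFE genes fell with tunicamycin too. *Tfeb*, the regulator best known for lysosome biogenesis, fell from 132 ± 3.73 to 30.5 ± 2.02 CPM (log2 -2.12, SE 0.07, adjusted p 3.5e-19), and *Tfe3* from 254 ± 9.53 to 174 ± 6.78 CPM (log2 -0.55, SE 0.04, adjusted p 1.4e-12). Each of these 4 genes was thus below its IL-4/IL-13 level in tunicamycin libraries, by amounts from 1.40-fold for *Tfec* to 6.00-fold for *Mitf*. Of all genes tested, 76.3% were called in this comparison and 37.6% were lower. Between the oligomycin groups *Tfec* was higher in set A, whereas *Tfeb* (log2 -0.59, SE 0.06, adjusted p 6.7e-08) and *Tfe3* (log2 -0.19, SE 0.04, adjusted p 0.000219) were, like *Mitf* (log2 -0.42, SE 0.06, adjusted p 7.35e-06), lower in set A.

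**Figure D2:**
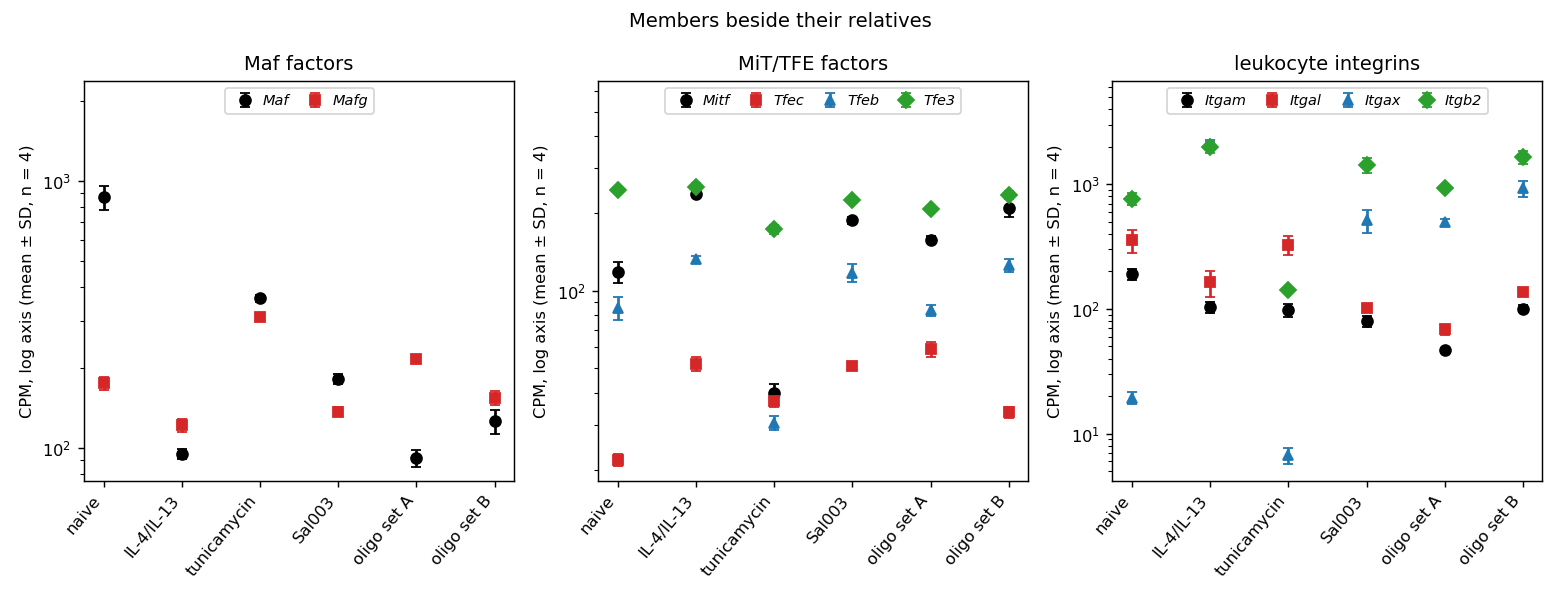
CPM on a log axis (vertical, mean ± SD over 4 libraries) by group for *Maf* and *Mafg*, for the MiT/TFE genes and for 4 leukocyte integrin genes, values not divided by length and so to be read along each gene. *Mafg* rose to 308 CPM with tunicamycin, and *Itgax* fell to 6.69 CPM while *Itgam* stayed at 97.2 CPM.

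*Csf1r* (ENSMUSG00000024621, chromosome 18, 61229714 to 61266535, plus strand) was lowered modestly by the cytokines and strongly by tunicamycin. Levels were 4329, 4209, 5284 and 4508 CPM in naive BMDM, 3463, 3545, 4255 and 3665 CPM with IL-4/IL-13 and 751, 855, 853 and 825 CPM with tunicamycin. Naive and IL-4/IL-13 libraries overlapped through mouse 4, which was highest in both, although *Csf1r* was lower with the cytokines in 4 of 4 mice (log2 -0.30, SE 0.07, adjusted p 0.000386, log2 -0.32 without naive mouse 2). Tunicamycin libraries lay far below both, 4.54-fold under IL-4/IL-13 (log2 -2.18, SE 0.07, adjusted p 1.5e-19) and 5.58-fold under naive BMDM (log2 -2.48, SE 0.07, adjusted p 1.82e-20, log2 -2.48 without naive mouse 2). Oligomycin set A held 2093, 2203, 2189 and 2162 CPM, 1.73-fold under IL-4/IL-13 (log2 -0.79, SE 0.07, adjusted p 1.24e-10). Sal003 (3465 ± 155 CPM, adjusted p 0.184) and oligomycin set B (3763 ± 107 CPM, adjusted p 0.893) did not pass the test against IL-4/IL-13. Of the exon sequence of *Csf1r*, 19.8% lies under *Hmgxb3* on the other strand, and the strand setting of the counting was not given in the sources used here. *Hmgxb3* was counted at 28.8 ± 1.62 CPM in naive and 63.1 ± 1.68 CPM in tunicamycin libraries, small against *Csf1r* in both.

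Around *Csf1r*, the ligand *Csf1* moved the other way, a gene named here after its values were seen. Tunicamycin raised it to 76.5 ± 8.81 CPM against IL-4/IL-13 (log2 2.08, SE 0.15, adjusted p 1.81e-12). *Csf2rb*, whose receptor chain carries the signal of the related cytokines GM-CSF, IL-3 and IL-5, and its relative *Csf2rb2* fell with *Csf1r*. *Csf2rb* went from 733 ± 62.2 to 114 ± 6.65 CPM (log2 -2.69, SE 0.07, adjusted p 2.89e-21) and *Csf2rb2* from 518 ± 45.7 to 49.9 ± 3.09 CPM (log2 -3.38, SE 0.08, adjusted p 1.7e-21). These 2 are near-identical copies, so reads may be split between them. Of 11 measured genes in a list of colony-stimulating factors, their receptors and downstream signalling proteins, 2 rose, 8 fell and 1 was not called with tunicamycin against IL-4/IL-13, where 38.7% of all genes were higher and 37.6% lower. The median log2 fold change of the list was -0.75 beside 0.01 over all genes tested.

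*Adgre1* (ENSMUSG00000004730, chromosome 17, 57665573 to 57790527, plus strand) fell with the cytokines and was highest with tunicamycin. Its levels were 3175, 3353, 3813 and 3607 CPM in naive BMDM, 869, 954, 1113 and 974 CPM with IL-4/IL-13 and 6053, 7296, 6898 and 6466 CPM with tunicamycin. Each tunicamycin library exceeded every naive library, and each naive library every IL-4/IL-13 library. The cytokines lowered *Adgre1* 3.57-fold (log2 -1.83, SE 0.07, adjusted p 6.24e-17, log2 -1.84 without naive mouse 2). Tunicamycin raised it 6.83-fold over IL-4/IL-13 (log2 2.77, SE 0.07, adjusted p 7.67e-21) and 1.92-fold over naive BMDM (log2 0.94, SE 0.07, adjusted p 8.74e-12, log2 0.96 without naive mouse 2). The other inhibitors raised it less, to 1498, 1674, 1649 and 1692 CPM with Sal003 (log2 0.74, SE 0.07, adjusted p 3.29e-09), to 1388, 1510, 1494 and 1409 CPM in oligomycin set B (log2 0.57, SE 0.07, adjusted p 2.04e-07) and to 1183, 1296, 1336 and 1291 CPM in set A (log2 0.39, SE 0.07, adjusted p 3.39e-05). *Adgre4* and *Adgre5*, which encode related adhesion receptors, did not rise with it. *Adgre5* fell from 188 ± 19.9 to 29.7 ± 3.37 CPM with tunicamycin (log2 -2.66, SE 0.12, adjusted p 3.1e-16), and *Adgre4*, at 126 ± 14.1 CPM in naive BMDM, was 2.94 ± 0.62 CPM with IL-4/IL-13 and 2.11 ± 0.45 CPM with tunicamycin.

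*Itgam* (ENSMUSG00000030786, chromosome 7, 127661808 to 127717753, plus strand) fell with the cytokines and fell again in oligomycin set A. It was 172, 200.4, 213 and 176 CPM in naive BMDM, 92.4, 106, 118 and 97.9 CPM with IL-4/IL-13, 80.7, 105, 105 and 98.1 CPM with tunicamycin and 44.1, 48.4, 47.4 and 48.3 CPM in oligomycin set A. Tunicamycin libraries overlapped the IL-4/IL-13 libraries (log2 -0.09, SE 0.09, adjusted p 0.347), while set A libraries were the lowest of the series. The cytokines lowered *Itgam* 1.84-fold (log2 -0.88, SE 0.09, adjusted p 3.75e-09, log2 -0.84 without naive mouse 2), and set A lay under IL-4/IL-13 (log2 -1.14, SE 0.09, adjusted p 5.19e-11). Sal003 lowered it to 75.8, 81.3, 90.1 and 71.8 CPM (log2 -0.38, SE 0.09, adjusted p 0.000941). The level of *Itgam* relative to other genes is uncertain, since 67.4% of its exon sequence is shared on the same strand with *Gm49368*, which held 0 to 4 reads per library, and the treatment of shared exons in the counting is not given in the sources used here. *Itgam* is also expressed by neutrophils, whose summed markers, given above, were highest in naive libraries. That sum was 29.0 to 50.8 CPM with IL-4/IL-13 and 0.10 to 0.33 CPM with tunicamycin, groups between which *Itgam* was not called. In oligomycin set A, where *Itgam* was lowest, the sum was 2.85 to 4.77 CPM. The part of neutrophils in the level of *Itgam* was not tested.

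Its partner chain *Itgb2*, which encodes CD18 and is needed to bring CD11b to the surface, rose from 768 ± 82.9 CPM in naive BMDM to 1985 ± 193 CPM with IL-4/IL-13 (log2 1.37, SE 0.09, adjusted p 2.63e-12, log2 1.35 without naive mouse 2) and fell to 142 ± 6.56 CPM with tunicamycin (log2 -3.80 against IL-4/IL-13, SE 0.10, adjusted p 7.18e-21). *Itgax*, which encodes CD11c, went from 19.5 ± 2.14 to 2109 ± 161 CPM with the cytokines (log2 6.76, SE 0.15, adjusted p 1.92e-21, log2 6.75 without naive mouse 2) and to 6.69 ± 1.01 CPM with tunicamycin (log2 -8.30, SE 0.17, adjusted p 3.4e-23). *Itgal*, which encodes CD11a, followed *Adgre1* in direction in these comparisons, falling 2.17-fold with the cytokines (adjusted p 2.47e-07, log2 -1.21 without naive mouse 2) and rising 2.01-fold over IL-4/IL-13 with tunicamycin (adjusted p 7.48e-07). With Sal003, where *Adgre1* rose, *Itgal* was 102 ± 5.97 CPM beside 163 ± 38.8 CPM with IL-4/IL-13. Of the 10 other leukocyte integrin genes measured, 5 rose and 5 fell with the cytokines (4 and 5 without naive mouse 2). There, 30.1% of all genes were higher and 30.4% lower. With tunicamycin against IL-4/IL-13, 3 of the 10 rose, 6 fell and 1 was not called. Of all genes, 38.7% were higher and 37.6% lower in that comparison.

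*Cd68* (ENSMUSG00000018774, chromosome 11, 69555037 to 69557067, minus strand) was the member that the cytokines alone did not change by the test, at 1094, 1353, 1213 and 1128 CPM in naive BMDM and 1211, 1204, 1321 and 1182 CPM with IL-4/IL-13 (log2 0.04, SE 0.06, adjusted p 0.582, and log2 0.12, adjusted p 0.0618 without naive mouse 2). Tunicamycin libraries held 488, 434, 527 and 475 CPM, Sal003 libraries 2067, 1988, 2093 and 2065 CPM and oligomycin set B libraries 1856, 1860, 1838 and 1900 CPM. The first of these groups lay under, and the last 2 over, every IL-4/IL-13 library. Tunicamycin lowered *Cd68* 2.56-fold against IL-4/IL-13 (log2 -1.35, SE 0.06, adjusted p 1.33e-16), while Sal003 raised it 1.67-fold (log2 0.74, SE 0.06, adjusted p 9.99e-11) and oligomycin set B 1.52-fold (log2 0.60, SE 0.06, adjusted p 3.45e-09). Oligomycin set A, at 1330, 1314, 1394 and 1310 CPM, did not pass the test (log2 0.12, adjusted p 0.0706). *Lamp1*, another glycoprotein of the lysosomal membrane, fell from 2307 ± 166 to 1147 ± 43.1 CPM with tunicamycin (log2 -1.01, SE 0.06, adjusted p 2.92e-13), and *Lamp2* was 791 ± 66.4 and 871 ± 50.2 CPM (log2 0.14, SE 0.06, adjusted p 0.0473).

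**Figure D3:**
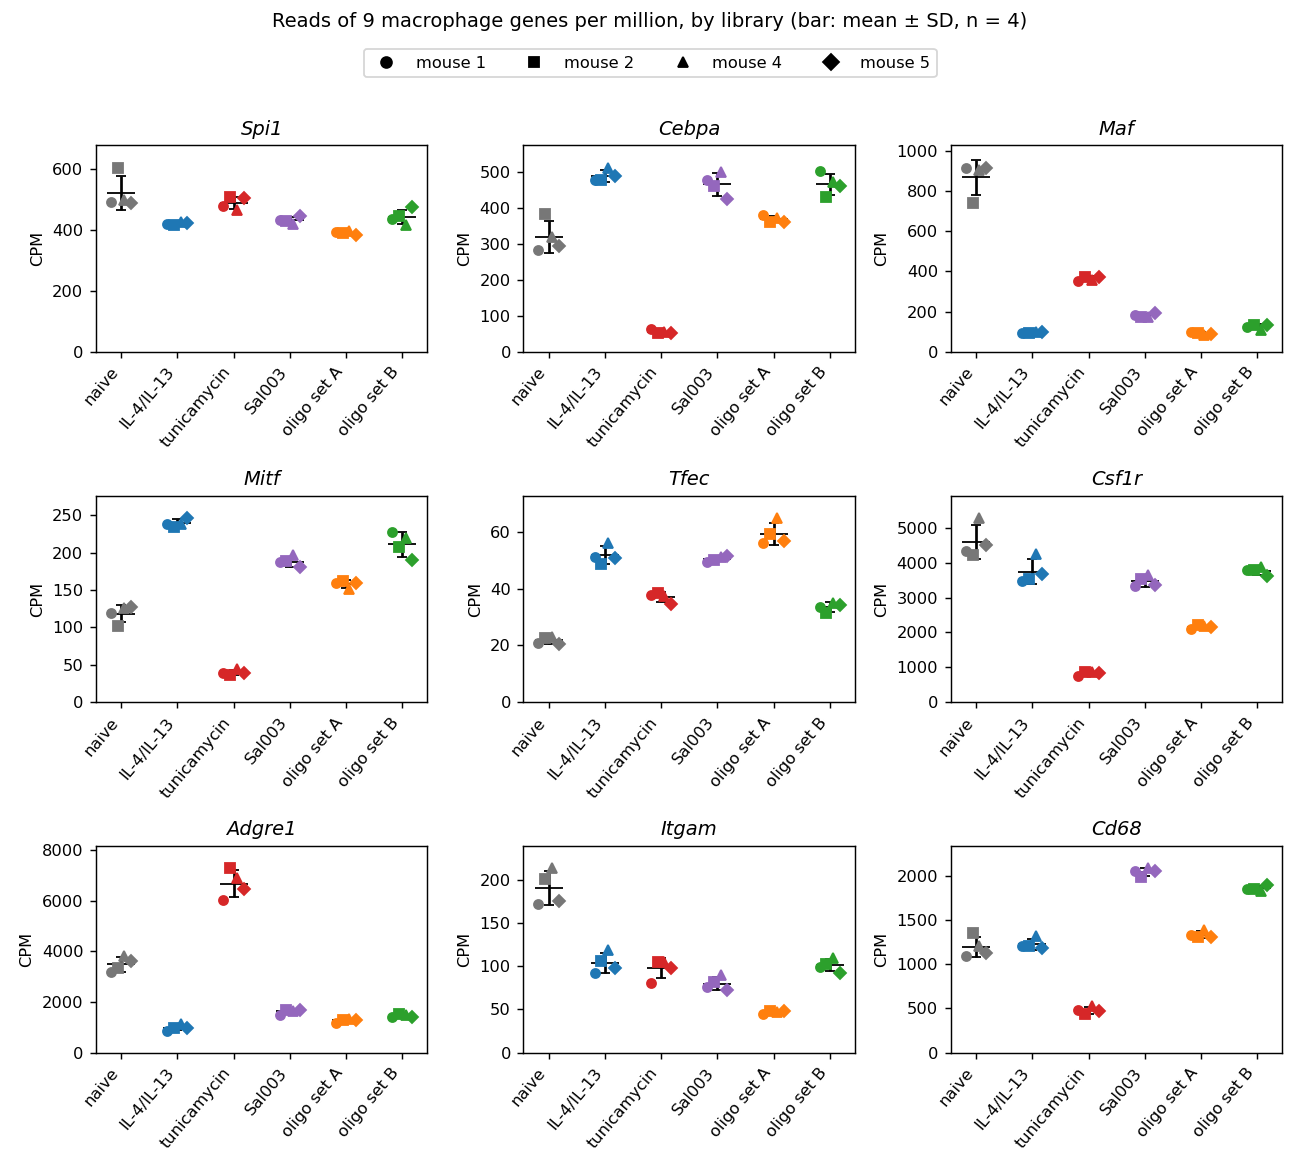
CPM (vertical, linear from 0) of each of the 9 genes in every library by group, symbols mark the mouse and bars the mean ± SD of 4 libraries. *Maf* and *Adgre1* fell with IL-4/IL-13 and were higher again with tunicamycin, whereas *Cebpa*, *Mitf* and *Csf1r* were lowest with tunicamycin.

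Over the 9 genes, IL-4/IL-13 against naive BMDM gave 3 higher (*Cebpa*, *Mitf* and *Tfec*), 5 lower (*Spi1*, *Maf*, *Csf1r*, *Adgre1* and *Itgam*) and 1 not called. Of all genes tested, 60.5% were called in this comparison, 30.1% higher and 30.4% lower. The median log2 fold change of the 9 was -0.30 beside -0.02 over all genes. *Maf* and *Adgre1*, 2 of the 9, passed a 2.5-fold minimum, as did 11.5% of all genes. The libraries of both groups did not overlap in 7 of the 9, and in 49.7% of all genes. The count of 8 called was the same without naive mouse 2.

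Tunicamycin against IL-4/IL-13 gave 3 higher (*Spi1*, *Maf* and *Adgre1*), 5 lower (*Cebpa*, *Mitf*, *Tfec*, *Csf1r* and *Cd68*) and 1 not called, with 76.3% of all genes called, 38.7% higher and 37.6% lower. Of the 9, 6 changed by at least 2.5-fold (22.6% of all genes), and the median log2 fold change was -0.48 beside 0.01. The groups did not overlap in 8 of the 9, and in 73.9% of all genes. Against naive BMDM tunicamycin gave 2 higher (*Tfec* and *Adgre1*), 6 lower and 1 not called (*Spi1*), with 77.6% of all genes called, 37.1% higher and 40.5% lower. The groups of that comparison did not overlap in 8 of the 9 and in 68.1% of all genes, and 3 of the 9 and 22.6% of all genes passed 2.5-fold.

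Sal003 against IL-4/IL-13 gave 3 higher (*Maf*, *Adgre1* and *Cd68*), 2 lower (*Mitf* and *Itgam*) and 4 not called, with 50.6% of all genes called, 25.9% higher and 24.6% lower. None of the 9, and 7.71% of all genes, passed 2.5-fold, and the groups did not overlap in 5 of the 9 and 50.3% of all genes. With scaling by library size alone, 8 members were called, and the share of called genes that were higher moved from 51.3% to 35.5%. Oligomycin set B gave 3 higher (*Maf*, *Adgre1* and *Cd68*), 2 lower (*Mitf* and *Tfec*) and 4 not called, with 54.3% of all genes called, 27.9% higher and 26.4% lower. None of the 9 and 7.96% of all genes passed 2.5-fold, and 5 of the 9 and 50.8% of all genes did not overlap. For set B the share of called genes that were higher moved from 51.5% to 40.2% with library size alone.

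Compared directly, Sal003 was above set B for *Maf* (log2 0.52, SE 0.07, adjusted p 8.71e-06) and *Tfec* (log2 0.59, SE 0.05, adjusted p 2.16e-08) and below it for *Itgam* (log2 -0.34, SE 0.09, adjusted p 0.00878). The other 6 members were not called, and of all genes 18.5% were called, 8.77% higher and 9.74% lower. Past 2.5-fold were 0.497% of all genes, and the groups did not overlap in 4 of the 9 members and 22.7% of all genes.

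Oligomycin set A against IL-4/IL-13 gave 2 higher (*Tfec* and *Adgre1*), 4 lower (*Cebpa*, *Mitf*, *Csf1r* and *Itgam*) and 3 not called, with 66.2% of all genes called, 34.0% higher and 32.2% lower. None of the 9 passed 2.5-fold, against 12.7% of all genes, and 6 of the 9 did not overlap, against 64.8%. Set A against set B gave 1 higher (*Tfec*) and 8 lower, with 41.2% of all genes called, 19.9% higher and 21.3% lower, and no member but 2.62% of all genes passed 2.5-fold. The differences furthest from 0 among the 9 were in *Itgam* (log2 -1.10, SE 0.09, adjusted p 5.09e-10), *Tfec* (log2 0.82) and *Csf1r* (log2 -0.80, SE 0.07, adjusted p 4.83e-10). The libraries of the sets did not overlap in 9 of the 9, and in 41.6% of all genes. The calls for *Spi1* (log2 -0.18, adjusted p 0.00928) and *Adgre1* (log2 -0.18, adjusted p 0.0384) were lost with scaling by library size alone (log2 -0.06 and -0.07), which moved the median of all genes by 0.12 and the share of called genes that were higher from 48.2% to 70.3%. Upper-quartile scaling lost them too (*Spi1* adjusted p 0.0568, *Adgre1* adjusted p 0.088). They were also lost without mouse 1 (*Spi1* adjusted p 0.0569, *Adgre1* adjusted p 0.0716) or mouse 5 (*Spi1* adjusted p 0.152, *Adgre1* adjusted p 0.117), and that of *Adgre1* without mouse 2 (adjusted p 0.124).

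Against naive BMDM, Sal003 and both oligomycin sets each gave 4 higher (*Cebpa*, *Mitf*, *Tfec* and *Cd68*) and 5 lower (*Spi1*, *Maf*, *Csf1r*, *Adgre1* and *Itgam*), and the 3 comparisons share the naive libraries. For Sal003 62.5% of all genes were called, 31.7% higher and 30.8% lower, with 50.7% of calls higher, or 39.8% with library size alone. For set A 71.0% were called, 35.5% in each direction, and for set B 63.8%, 32.6% higher and 31.2% lower. Groups did not overlap in 9 (Sal003), 7 (set A) and 9 (set B) of the 9 members, against 50.0%, 60.3% and 50.0% of all genes. Past 2.5-fold were 1, 4 and 1 members, against 10.7%, 14.5% and 11.0% of all genes. For set A the calls of *Cebpa* (log2 0.21, adjusted p 0.0155) and *Cd68* (log2 0.16, adjusted p 0.0171), at log2 0.32 and 0.23 without naive mouse 2, were lost without mouse 1 (*Cebpa* adjusted p 0.135, *Cd68* adjusted p 0.151) or mouse 5 (*Cebpa* adjusted p 0.0901, *Cd68* adjusted p 0.103), and that of *Cebpa* without mouse 4 (adjusted p 0.062). Fitting only the groups compared lost both (*Cebpa* adjusted p 0.0627, *Cd68* adjusted p 0.0722), and *Cd68* was also lost with upper-quartile scaling (adjusted p 0.0516) and with at least 10 counts in every library (adjusted p 0.0544).

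**Figure D4:**
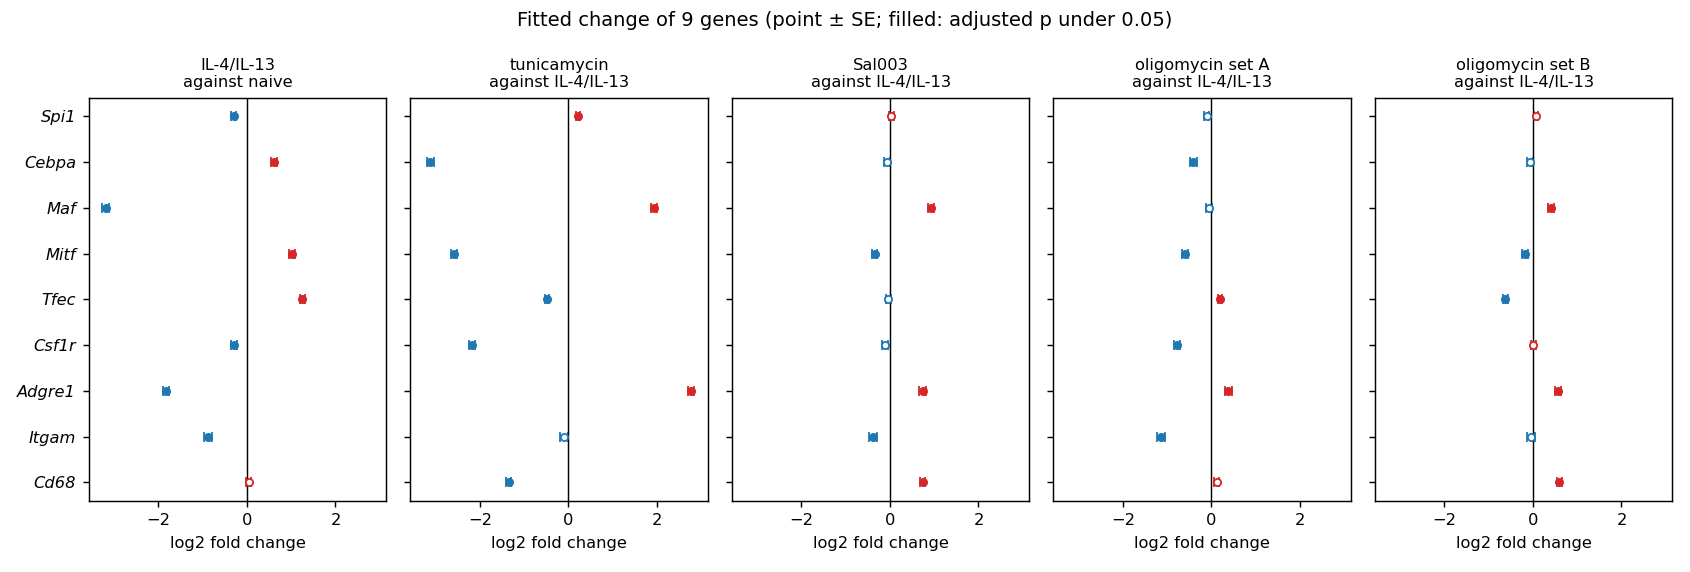
Fitted log2 fold change (horizontal, ± SE) of the 9 genes in 5 comparisons, filled points have an adjusted p under 0.05 in edgeR's test, red points are above and blue points below 0. The tunicamycin panel spans -3.12 for *Cebpa* to 2.77 for *Adgre1*, a wider spread than the panels of the other inhibitors.

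Ordered by level, 28 of the 45 pairs of neighbouring groups (5 pairs for each gene) differed by the test. Between such groups, the share of all genes called ran from 18.5% (Sal003 against set B) to 77.6% (tunicamycin against naive BMDM). The groups were ordered by the same means that were tested, and the count is not a result about these genes as a set. *Maf*, *Mitf*, *Tfec* and *Adgre1* had 4 of 5 neighbouring pairs called. *Spi1* had 1 of 5, between tunicamycin and oligomycin set B (adjusted p 0.0198), and *Cd68* had 2 of 5. The genes whose centred log2 levels over the 6 groups lay closest to a member were *Tpcn2* for *Cebpa* (root-mean-square difference 0.09, against a median of 1.14 over all genes tested), *Ctsh* for *Csf1r* (0.08, against 0.89), *Plxnd1* for *Mitf* (0.09, against 0.92), *Ccl4* for *Adgre1* (0.21, against 1.00) and *Hgf* for *Cd68* (0.12, against 0.76). The closest for *Spi1*, *Maf*, *Tfec* and *Itgam* were *Mpg* (0.04), *Gm28417* (0.20), *Ier3* (0.18) and *Vsir* (0.12). For *Csf1r* the next were *Ltc4s* and *Cst3*, each at 0.09. The closest of all genes lies far under the median by construction, so the medians give scale only. *Gm28417* was poorly counted, at 1.29 ± 0.26 CPM with IL-4/IL-13, and so was *Ltc4s*, at 0.58 ± 0.27 CPM with tunicamycin.

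In a list of other macrophage markers, mostly surface proteins, 1 was higher, 12 were lower and 1 was not called of 14 measured with the cytokines, where 30.1% of all genes were higher and 30.4% lower. The counts were the same without naive mouse 2, and the median log2 fold change of the list was -1.61 beside -0.02 over all genes. The 3 furthest from 0 were *Cx3cr1*, *Marco* and *Fcgr1*. *Cx3cr1*, the fractalkine receptor, fell from 114 ± 15.3 to 1.97 ± 0.63 CPM (log2 -5.85, SE 0.15, adjusted p 7.74e-21, log2 -5.92 without naive mouse 2). *Marco*, a scavenger receptor, fell from 15.9 ± 13.1 to 0.34 ± 0.08 CPM (log2 -5.50, SE 0.80, adjusted p 1.84e-06), a value that moved to log2 -4.74 without naive mouse 2. *Fcgr1*, the high-affinity IgG receptor, fell from 497 ± 37.3 to 36.9 ± 2.58 CPM (log2 -3.75, SE 0.21, adjusted p 6.29e-14, log2 -3.69 without naive mouse 2).

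With tunicamycin against IL-4/IL-13 the same list gave 6 higher, 6 lower and 2 not called, where 38.7% of all genes were higher and 37.6% lower. *Marco* rose to 46.1 ± 34.2 CPM (log2 7.06, SE 0.74, adjusted p 4.02e-09), with a wide spread between mice. *Cd163*, the haemoglobin scavenger receptor, fell from 9.14 ± 1.23 to 0.25 ± 0.09 CPM (log2 -5.19, SE 0.28, adjusted p 1.09e-14). *Ccr2*, a chemokine receptor of monocytes, fell from 99.6 ± 8.57 to 7.71 ± 0.51 CPM (log2 -3.69, SE 0.11, adjusted p 1.09e-19).

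Other myeloid lineage factors gave 7 higher, 9 lower and 1 not called of 17 measured with the cytokines (8, 9 and 0 without naive mouse 2), beside 60.5% of all genes called. With tunicamycin against IL-4/IL-13 they gave 6 higher, 10 lower and 1 not called, beside 76.3% of all genes called. The largest change in both was *Bhlhe40*, which encodes a repressor that promotes macrophage proliferation, from 18.3 ± 3.78 CPM in naive BMDM to 268 ± 4.44 CPM with IL-4/IL-13 (log2 3.87, SE 0.12, adjusted p 3.99e-19, log2 3.81 without naive mouse 2) and 13.6 ± 1.75 CPM with tunicamycin (log2 -4.30, SE 0.12, adjusted p 1.98e-20). *Spic*, an Ets factor related to PU.1, was 6.24 ± 0.42 CPM in naive, 1.23 ± 0.37 CPM in IL-4/IL-13 and 14.6 ± 1.29 CPM in tunicamycin libraries.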

How the data were processed

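Per the labels and the study's methods, the authors trimmed reads (cutadapt 1.8), aligned them to GRCm39 (STAR 2.7) and deposited whole-number counts per gene from HTSeq 0.9.1, and the strand setting is not given in the sources used here. A deposited TPM table (RSEM 1.2.31) was not used, since its header and columns disagree in number. Totals of unassigned reads (12.7% to 15.2% of a library) were left out of library sizes. Counts were fitted in R 4.3.3 with edgeR 4.0.16 (TMM scaling, filterByExpr, glmQLFit and glmQLFTest, 1 coefficient per group over 24 libraries, two-sided), and p-values were Benjamini-Hochberg adjusted over 13679 genes. The fit was tested on simulated data. DESeq2 1.42.0, 2 other scalings, 2 filters, a 2.5-fold minimum, the mouse as a block and leaving out each mouse were alternatives. The labels name the mouse of each library, which pairs libraries across groups: same-mouse deviations from group means had a median correlation of 0.24 over 60 pairs (56 above 0.1), against -0.05 over 180 pairs of different mice (7 above 0.1). Gene positions are from GENCODE vM39 (GRCm39), in which 56323 of 56884 identifiers were found. The members and gene lists were chosen with earlier results of these data known. Genes named from a list are the 3 with the largest called change or relatives of a member, except where stated, and the genes most like a member are those with the smallest root-mean-square difference of centred log2 CPM over the 6 group means. Median biological variation between libraries was 7.06%, so small fold changes of well counted genes pass the test. Some items are not reported here.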

Additional observations from a re-analysis of the deposited data

Results flagged for a closer look

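In 3 of the 54 combinations of member and group, 1 of 4 libraries stood far from the others by Dixon's test, and chance flags about 1 in 20 such groups. *Spi1* was 606 CPM in naive mouse 2 against 489 to 499 CPM in the other naive libraries. *Maf* was 739 CPM in naive mouse 2 against 905 to 917 CPM in the other naive libraries. *Cebpa* was 63.8 CPM in tunicamycin mouse 1 against 53.3 to 54.8 CPM in the other tunicamycin libraries, all far below the lowest IL-4/IL-13 library at 478 CPM.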

How the results depend on the processing

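A 2.5-fold minimum lowered the members called to 2 (IL-4/IL-13), 3 (tunicamycin), 1 (Sal003), 4 (oligomycin set A) and 1 (set B) against naive BMDM, to 0 for Sal003, set A and set B against IL-4/IL-13 and for set A against set B, and to 3 of the neighbouring pairs in the order of levels. At no minimum fold, edgeR called 5, 6, 5 and 9 in those 4 comparisons. Library size alone called 8 for Sal003 against IL-4/IL-13.

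Sign changes occurred in values not called in the edgeR fit (all log2). *Spi1* in Sal003 against IL-4/IL-13 was -0.00298 with upper-quartile scaling and -0.0616 with library size alone, and in set B against IL-4/IL-13 -0.00503 with library size alone. *Csf1r* in set B against IL-4/IL-13 was -0.0101 with DESeq2, -0.0359 with upper-quartile scaling, -0.0604 with library size alone, -0.0102 with at least 10 counts in every library, -0.00235 with only the groups compared, and -0.0391 to 0.0682 leaving out a mouse. Leaving out a mouse, *Tfec* in Sal003 against IL-4/IL-13 ranged from -0.0576 to 0.00291 and *Maf* in set A against IL-4/IL-13 from -0.113 to 0.0220. *Spi1* in tunicamycin against naive BMDM ranged from -0.0949 to 0.0313, the last without naive mouse 2, an alternative added after seeing the data. The causes were not tested.

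Calls were gained for *Spi1* in set A against IL-4/IL-13 (DESeq2 adjusted p 0.0126, at least 10 counts 0.0248, without mouse 2 0.0372, only the groups compared 0.0025, without naive mouse 2 0.00515), *Cd68* in the same comparison (library size alone 0.00627, only the groups compared 0.0251, without naive mouse 2 0.0397) and *Spi1* in tunicamycin against naive BMDM (upper-quartile scaling 0.0169, at least 10 counts 0.0188). Calls that were lost are given with their comparisons above.

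The replicate block for the mouse changed no call of a member in the 10 comparisons, with 8 called for tunicamycin against IL-4/IL-13.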
